A study of Mus musculus with 6 samples.

Results

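The phospholipase D family was described gene by gene in RET cells, a mouse melanoma cell line, with 3 cultures carrying the hairpin named Angpt2 shRNA-1 and 3 cultures carrying a non-targeting control hairpin. The family members Pld1, Pld2, Pld3, Pld4, Pld5 and Pld6 were taken by name, and all 6 were present among the 22180 named genes of the array, each with 1 transcript cluster. The family was chosen by the measured Pld4 intensities, which differed between the groups in these same arrays, so the Pld4 values are a description with no test. The other 5 genes came in by family name alone.

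All cultures were transduced with a hairpin, were of the strain given in the labels as C57BL\6, and were grown for 24 h in high-glucose medium with serum after equal seeding. RNA was hybridised to 1 Affymetrix Mouse Gene 2.0 ST array per culture. The labels give 1 hairpin against Angpt2 and no rescue, and do not say whether the transduced cells were clones or pools. Effects of lower Angpt2, other effects of this hairpin and differences between the transduced populations therefore cannot be told apart. GFP stands in the titles of the control samples, and its meaning was left uninterpreted.

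Phospholipase D enzymes are named for the cleavage of phosphatidylcholine into choline and phosphatidic acid, a membrane lipid that also acts as a signal. Pld1 and Pld2 carry out this reaction, Pld1 mainly on internal membranes and Pld2 mainly at the plasma membrane. Pld3 and Pld4 are single-pass membrane proteins of the endolysosome that degrade single-stranded nucleic acids from the 5′ end and thereby limit the Toll-like receptors that sense DNA and RNA there. Pld4 is best known from plasmacytoid dendritic cells, B cells, macrophages and microglia. Pld6 sits on the outer membrane of mitochondria and is needed for piRNA production in germ cells, and Pld5 lacks catalytic residues of the family and is thought to be inactive.

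The promoters of Pld4 and Pld3 are shown because these genes encode the 2 endolysosomal nucleases of the family, one of which, Pld4, led to its choice. Each stretch runs from 250 bases before to 50 bases after a RefSeq transcript start in GRCm38.p6. Capitals mark every match, on either strand, to any of 6 short motifs that were chosen with these sequences in view. They were GAGGAAGT (the core bound by PU.1, a factor of myeloid and B cells), TGACGT (the core of the cAMP response element), CACGTG and CATGTG (E-boxes bound by the TFEB and MITF family), GGGCGG (the GC box) and TATAAA (the TATA box).
Pld4 promoter, chr12:112760405-112760704, plus strand: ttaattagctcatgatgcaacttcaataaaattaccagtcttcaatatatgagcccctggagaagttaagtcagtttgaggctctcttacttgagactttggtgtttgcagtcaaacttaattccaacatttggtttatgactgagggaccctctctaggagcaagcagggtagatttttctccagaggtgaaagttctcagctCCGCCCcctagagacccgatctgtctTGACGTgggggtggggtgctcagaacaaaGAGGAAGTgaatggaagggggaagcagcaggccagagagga
Pld3 promoter, chr7:27553169-27553468, minus strand: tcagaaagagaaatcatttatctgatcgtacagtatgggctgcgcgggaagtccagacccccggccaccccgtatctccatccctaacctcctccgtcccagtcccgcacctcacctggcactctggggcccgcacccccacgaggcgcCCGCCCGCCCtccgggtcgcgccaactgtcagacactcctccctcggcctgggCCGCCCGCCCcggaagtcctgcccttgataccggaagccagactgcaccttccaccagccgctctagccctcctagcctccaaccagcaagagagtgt

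The Pld4 promoter held 3 motif matches, counted from base 1 at the 5′ end of the window. The GC box lay at base 205 on the opposite strand, TGACGT at base 231, and GAGGAAGT at base 260, after the transcript start used here. The RefSeq gene begins earlier, at position 112760446, inside this window and before all 3 matches. Among 32544 distinct mouse promoter windows of this length, 3.11% held GAGGAAGT, 7.55% TGACGT and 35.9% GGGCGG. The Pld3 window held 4 GC boxes on the opposite strand, in 2 pairs that overlap, and no match to the other motifs.
CACGTG (7.17% of windows) was found in 1 of the 2 Pld6 windows and in no window of another member, whereas CATGTG (14.2%) and TATAAA (13.6%) were in none of the family's windows. The Pld4 window was poor in CpG, with 3 CpG pairs and 46.7% GC, against medians of 7 and 53.0% over all windows. The Pld3 window had 21 CpG pairs and 65.3% GC, and the first Pld1 window 31 and 68.7%. The second Pld1 window, with 5 CpG pairs and 46.7% GC, and the Pld5 window, with 6 and 51.0%, were nearer to that of Pld4. The windows of Pld2 and Pld6 held 18 to 25. These are matches of letters, and no binding was measured.

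The targeted gene, Angpt2, was measured at an intensity of 100.2, 122 and 122 on the Angpt2 shRNA-1 arrays 1, 2 and 3, against 195, 372 and 326 on the control arrays 1, 2 and 3. All silenced arrays lay below all control arrays. The log2 fold change was -1.33 (SE 0.21), with a limma adjusted p = 0.9998 in the main fit. An adjusted p of this size therefore does not by itself show that a gene was unchanged. The deposited values are normalized intensities without detection calls, with array medians between 74.5 and 76.2. The dim end of the array was therefore described by 1390 olfactory and vomeronasal receptor genes, a class largely confined to sensory epithelium. Their 95th percentile lay between 72.6 and 75.1 on the Angpt2 shRNA-1 arrays and between 74.7 and 76.6 on the control arrays, and is called the dim limit below. Of all named genes, 61.9% had a mean level above 72.4, the 95th percentile of these receptors' mean levels. The melanocyte genes Mitf, Sox10, Tyr, Tyrp1, Dct, Mlana, Pmel and Gpr143 all lay above the dim limit on all 6 arrays.

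Pld4 had intensities of 127, 126 and 150.4 on the Angpt2 shRNA-1 arrays 1, 2 and 3, against 62.6, 66.3 and 71.0 on the control arrays 1, 2 and 3. The groups did not overlap, and the lowest silenced array was 1.77-fold above the highest control array. Over all genes, 9.01% had groups that did not overlap in either direction and 3.53% with silenced arrays higher. On the log2 scale the mean was 7.07 ± 0.14 in silenced cells and 6.06 ± 0.09 in control cells (SD, n = 3 each), a difference of 1.01. Only 5 of the 22180 genes, or 0.0225%, differed by at least 2-fold between group means, and Pld4 was the fifth of them by size. Nothing is read from these shares, since this contrast led to the choice of the family.

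The place of Pld4 on the array differed as well. On the Angpt2 shRNA-1 arrays its signal exceeded that of 59.8% to 62.6% of all named genes, against 24.4% to 36.6% on the control arrays. It stood above 99.4% to 99.6% of the dim receptor genes in silenced cells and above 84.9% to 93.4% of them in control cells. Pld4 was above the dim limit on 3 of 3 silenced arrays and on 0 of 3 control arrays. Its control signal thus lies within the range of genes not thought to be expressed here, and the 2.01-fold ratio of signals need not be the ratio of transcripts. The bulk arrays also cannot tell more Pld4 RNA per cell from more cells that contain it.

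**Figure D1:**
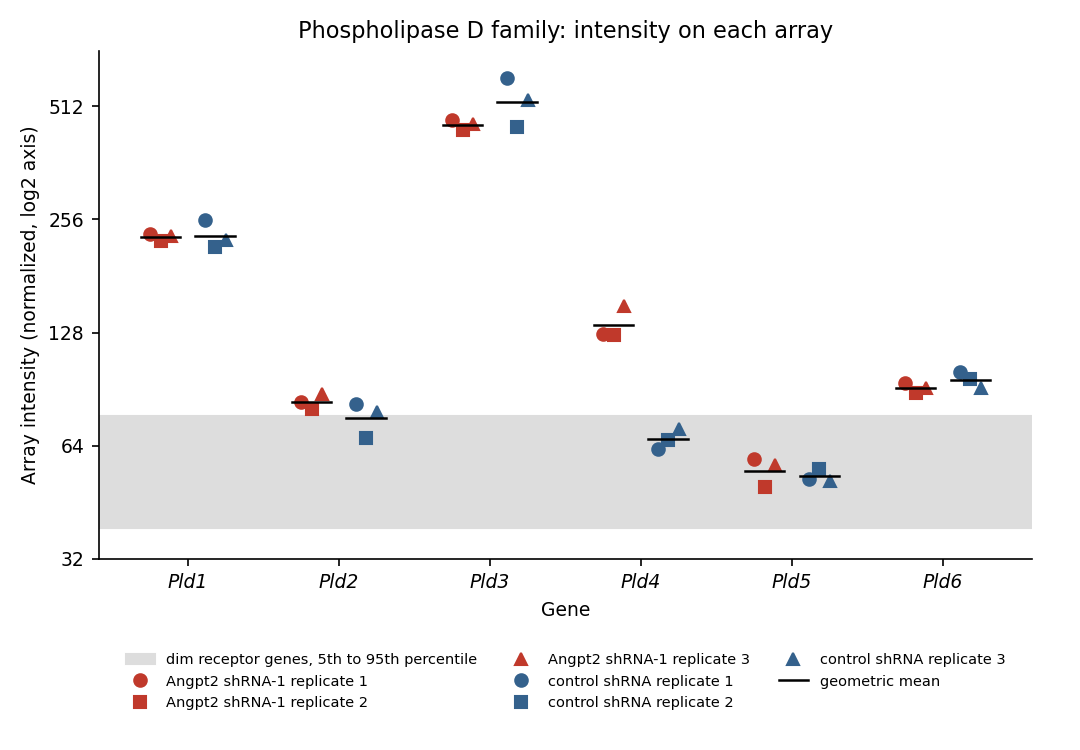
Normalized array intensity (log2 axis) of Pld1 to Pld6, with Angpt2 shRNA-1 arrays in red left of control shRNA arrays in blue, 1 point per array and a line at each geometric mean (n = 3); the grey band runs from the lowest 5th to the highest 95th percentile of the 1390 dim receptor genes over the 6 arrays. Pld4 lies above the band on the silenced arrays (126 to 150.4) and inside it on the control arrays (62.6 to 71.0), and Pld5 lies inside it in both groups.

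Pld3, the other endolysosomal nuclease, was at 472, 443 and 459 on the Angpt2 shRNA-1 arrays 1, 2 and 3, against 610, 451 and 532 on the control arrays 1, 2 and 3. The groups overlapped, with control replicate 2 below the highest silenced array. The log2 difference was -0.20 (SE 0.11, 95% interval -0.46 to 0.05, limma adjusted p = 1.00), or 1.15-fold lower in signal. Control replicate 1 had the highest value, and without it the difference was -0.10. Without control replicate 2 it was -0.32 (limma adjusted p = 0.919). Replicates of the control group spread by 1.35-fold from lowest to highest and those of the silenced group by 1.06-fold. The signal exceeded that of 82.8% to 84.0% of named genes on silenced arrays and of 83.0% to 87.8% on control arrays, the highest place on the array in the family.

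Pld1, a phosphatidylcholine-cleaving member, had intensities of 235, 225 and 231 on the Angpt2 shRNA-1 arrays 1, 2 and 3, against 255, 216 and 226 on the control arrays 1, 2 and 3. All silenced values fell inside the control range. The log2 difference was -0.011 (SE 0.09, 95% interval -0.21 to 0.19, limma adjusted p = 1.00), and its sign changed with scaling, array weights and single arrays. A change beyond 1.14-fold upward lay outside the interval. The signal stood above 70.2% to 71.1% of named genes on the silenced arrays and above 69.4% to 72.3% on the control arrays.

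Pld2, the plasma membrane counterpart, had intensities of 83.9, 79.9 and 88.0 on the Angpt2 shRNA-1 arrays 1, 2 and 3, against 82.5, 67.1 and 78.9 on the control arrays 1, 2 and 3. The silenced arrays were mostly the higher ones, but control replicate 1 exceeded silenced replicate 2. The log2 difference was 0.14 (SE 0.10, 95% interval -0.08 to 0.37, limma adjusted p = 1.00). Pairs of arrays with the same replicate number differed by 0.024, 0.25 and 0.16 on the log2 scale. Control replicate 2 was the only array on which Pld2 fell under the dim limit, and without that array the difference was 0.056.

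Pld6, the mitochondrial member, was at 94.1, 88.6 and 91.2 on the Angpt2 shRNA-1 arrays 1, 2 and 3, against 101, 96.3 and 91.2 on the control arrays 1, 2 and 3. The groups overlapped, and control replicates 1 and 2 were the highest arrays. The log2 difference was -0.073 (SE 0.08, 95% interval -0.26 to 0.11, limma adjusted p = 1.00). Its signal was above the dim limit on all 6 arrays by a small margin.

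Pld5, the member thought to be inactive, was at 59.0, 49.6 and 56.7 on the Angpt2 shRNA-1 arrays 1, 2 and 3, against 52.3, 55.6 and 51.7 on the control arrays 1, 2 and 3. It was under the dim limit on all 6 arrays, and the silenced arrays held both its highest and its lowest value. The log2 difference was 0.047 (SE 0.09, 95% interval -0.16 to 0.26, limma adjusted p = 1.00). Its signal was above 54.1% to 82.2% of the dim receptor genes in silenced cells and above 59.8% to 72.1% in control cells.

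**Figure D2:**
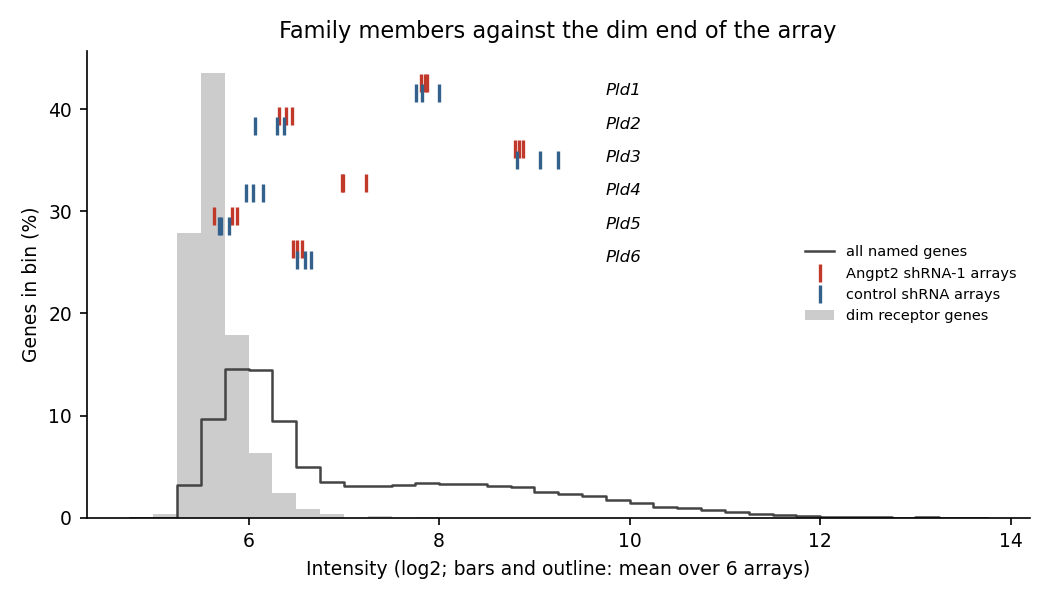
Distribution of mean log2 intensity over the 6 arrays for the 1390 dim receptor genes (grey bars) and all 22180 named genes (outline), in percent of genes per bin, with ticks for each array of each family member above it (red, Angpt2 shRNA-1; blue, control shRNA; tick height has no meaning). Pld3 and Pld1 lie far to the right of the dim receptor genes, Pld5 lies among them, and the red and blue ticks are fully apart with all red ones to the right for Pld4 alone among the 6 genes.

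By place on the array the order on silenced arrays was Pld3, Pld1, Pld4, Pld6, Pld2 and Pld5. On control arrays it was Pld3, Pld1, Pld6, Pld2, Pld4 and Pld5, with Pld2 and Pld4 overlapping in their values. Pld6 and Pld2 did not overlap in silenced cells (88.6 to 94.1 against 79.9 to 88.0), but their ranges nearly touched. Clusters differ in probes and in background, so this is an order of signals and not of transcript numbers.

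Across the family, 3 of 6 log2 differences were positive, against 45.2% of all genes. Among the 5 members taken by name alone, 2 were positive and 3 negative, between -0.20 and 0.14. Their groups overlapped in 5 of 5 cases, and only 9.01% of all genes had groups that did not overlap. The absolute difference of Pld3 was exceeded by 8.26% of all genes, that of Pld2 by 18.8%, of Pld6 by 48.5%, of Pld5 by 64.7% and of Pld1 by 91.5%. The widest bounds of their 5 intervals were 0.727-fold and 1.29-fold. The difference between Pld4 and the other members was not tested, because Pld4 was chosen for its value.

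**Figure D3:**
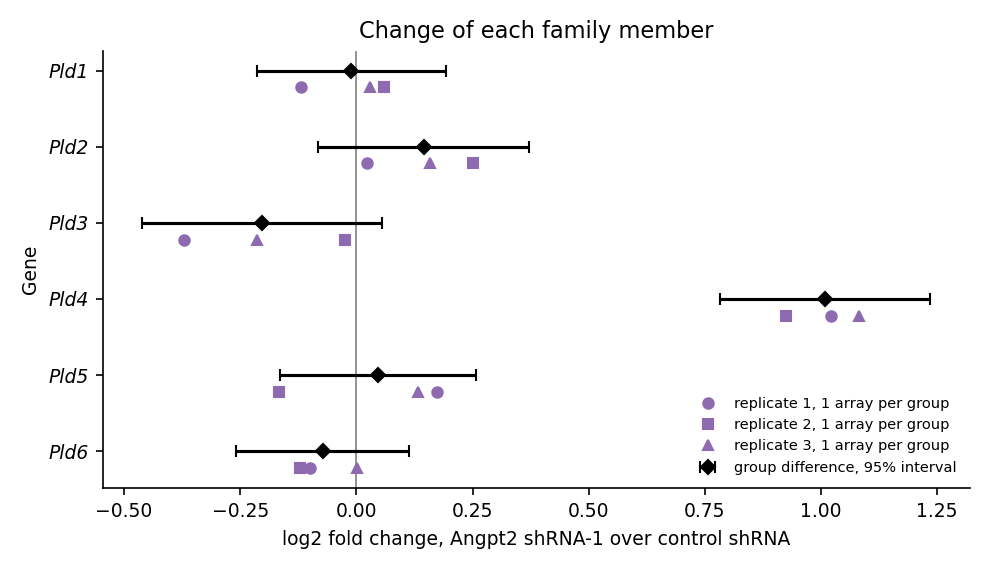
Log2 fold change of Angpt2 shRNA-1 over control shRNA for each family member, with black diamonds and bars for the group difference and its 95% interval (limma, 3 arrays per group) and purple symbols for the difference within each replicate number. Pld4 lies at 1.01, with 1.02, 0.92 and 1.08 within replicates 1, 2 and 3. The bar of Pld4 is not a test, because the same values chose the family. The intervals of the other 5 members include 0.

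With limma and Benjamini-Hochberg adjustment, 0 of 22180 genes (0%) passed an adjusted p of 0.05, and 835 (3.76%) had an unadjusted p under 0.05. None of the 5 members taken by name was in either count. When replicate numbers entered the fit as a block, the count was 2, none of them among the 5 members. The genes counted were Angpt2, the target of the hairpin, and Pld4, whose count supports nothing here because the same intensities chose it. Without control replicate 1 the count was 1 gene, Angpt2, and without control replicate 2 it was 2, Plekho1 and Btbd35f12, which were singled out because they were those counts. For single genes the exact two-sided permutation test of 3 against 3 arrays cannot give a p below 0.1.

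Genes that work with the family were followed in 8 lists holding 88 genes, of which 77 were measured and the others are not analysed here. The lists were drawn up with earlier results of these data known. None of the 77 passed the limma test in either direction, and neither did any of the 22180 genes (0%). An unadjusted limma p under 0.05 was found for 2 of the 77, beside 3.76% of all genes. Positive log2 fold changes were found in 35 of 77, with a median of -0.0089 beside -0.012 over all genes. The 2 genes named per list are those with the largest absolute change among members above the dim receptor genes, and each had a limma adjusted p = 1.00.

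Pld3 and Pld4 act in the compartment of the nucleic acid-sensing Toll-like receptors. Of 15 measured genes of that pathway 5 had positive log2 fold changes, and the median was -0.035. Tlr9, the receptor for DNA, lay around the dim limit, and Tlr7, a receptor for single-stranded RNA, lay under it. Tlr9 read 68.9 to 86.2 on silenced and 66.0 to 82.0 on control arrays, and Tlr7 read 45.8 to 54.6 on silenced and 51.7 to 57.2 on control arrays. Tlr3, the receptor for double-stranded RNA, was brighter and had a log2 fold change of -0.15 (SE 0.10), and its adaptor gene Ticam1 had -0.16 (SE 0.09). Of 5 measured other nucleases 3 were positive, with Samhd1, which also breaks down deoxynucleotides, at 0.16 (SE 0.18) and Rnaseh2a, a ribonuclease H subunit, at -0.17 (SE 0.09).

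Around Pld1 and Pld2, 11 of 18 measured genes that make or use phosphatidic acid were positive, with a median of 0.040. Dgke, a diacylglycerol kinase that makes phosphatidic acid, was at -0.19 (SE 0.10), and Lpin1, a phosphatase that uses it, at 0.18 (SE 0.10). Of 11 activators of these enzymes 6 were positive with a median of 0.00060, and the small GTPase genes Rala and Arf6 were at 0.22 (SE 0.16) and -0.21 (SE 0.10). Among 7 measured enzymes of similar activity or of the wider superfamily 3 were positive. Pgs1, a superfamily member on the route to cardiolipin, was at 0.25 (SE 0.09), and Tdp1, which frees DNA ends from trapped topoisomerase, at -0.25 (SE 0.11). These were the 2 of the 77 listed genes with an unadjusted limma p under 0.05, beside 3.76% of all genes.

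Other partners of the family act in lysosomes, germ cells and mitochondria. Pla2g15 and Abhd6, the measured genes of the turnover of the lysosomal lipid bis(monoacylglycero)phosphate, were at -0.084 (SE 0.10) and -0.034 (SE 0.10). Of 11 piRNA pathway genes 4 were positive with a median of -0.022, and only 3 had a mean level above that of the dim receptor genes. Tdrkh, a mitochondrial Tudor protein of that pathway, was at -0.075 (SE 0.11) and Piwil2, a germline Piwi protein, at -0.078 (SE 0.11). Of 8 genes of mitochondrial fusion and fission 3 were positive, with the fission adaptor genes Mief2 at -0.16 (SE 0.09) and Mff at 0.15 (SE 0.13).

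**Figure D4:**
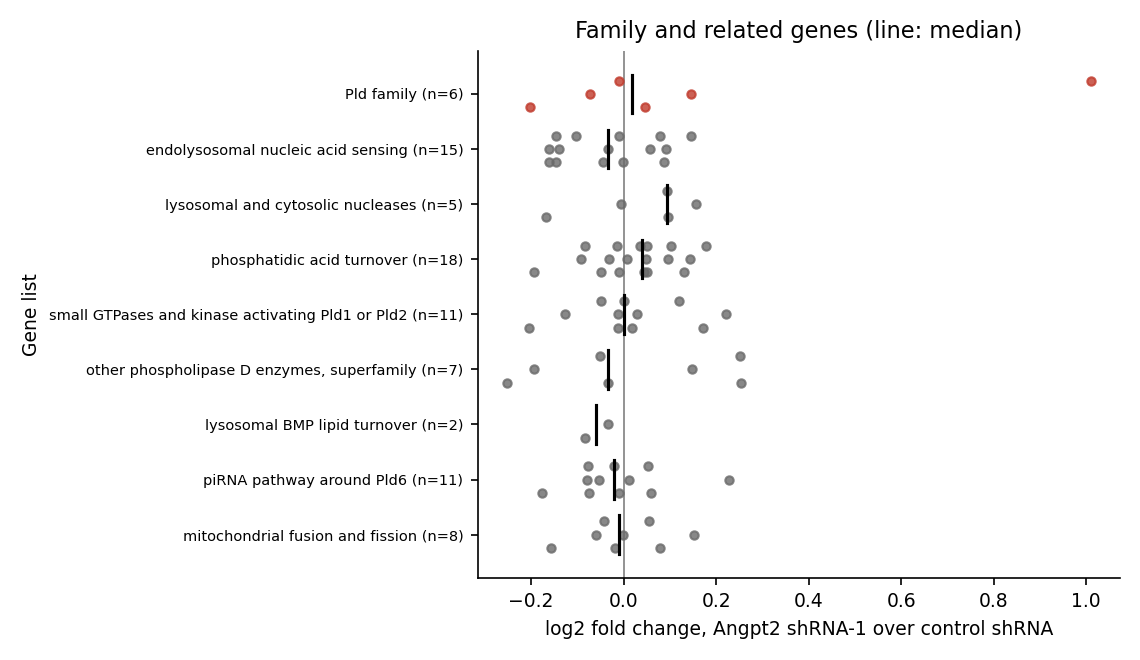
Log2 fold change of Angpt2 shRNA-1 over control shRNA for each measured gene of the phospholipase D family (red) and of the 8 lists of related genes (grey), 1 point per gene with a line at the list's median; vertical scatter within a list has no meaning. All 77 listed genes lie between -0.25 and 0.25, and Pld4 lies alone at 1.01.

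Markers of the immune cells in which Pld4 is best known lay on both sides of the dim limit. Of 19 measured markers, 7 had a mean level above that of the dim receptor genes, and 10 had positive log2 fold changes. The median of the 19 was 0.025, beside -0.012 over all genes. Cd68 and Fcer1g were above the dim limit on every array. Irf8, Csf1r, Spi1 and C1qa were above it on all silenced but not all control arrays. That limit was mostly lower on silenced arrays, and Spi1 passed it on silenced array 3 at 75.15 against 75.09. The share of all genes with such a split was not counted, so nothing is read from it. The summed intensity of the 19 markers was 1338 to 1418 on silenced arrays and 1357 to 1438 on control arrays. Ptprc, the pan-leukocyte marker, read 47.3 to 57.2 in silenced and 53.3 to 58.6 in control cells. Siglech, a marker of plasmacytoid dendritic cells, read 67.2 to 71.1 in silenced and 61.2 to 74.7 in control cells. Ms4a1, a B cell marker, read 52.3 to 56.8 in silenced and 55.5 to 57.5 in control cells. These 3 were under the dim limit on every array. Others lay higher in part of the arrays. Irf8, a factor of dendritic cells and macrophages, read 79.1 to 80.6 in silenced cells and 66.7, 82.3 and 68.6 on control arrays 1, 2 and 3. Csf1r, the macrophage growth factor receptor, read 75.9 to 82.3 in silenced cells and 68.3, 86.9 and 69.3 on those control arrays. C1qb, a complement gene of macrophages, was the 1 marker with all silenced arrays higher, at 65.9 to 79.6 in silenced and 58.3 to 62.6 in control cells (log2 fold change 0.23, SE 0.09, limma adjusted p = 1.00). The groups of C1qc did not overlap either, with silenced arrays lower. Over all genes, groups did not overlap for 3.53% with silenced arrays higher and for 5.48% with silenced arrays lower. The part of immune cells in the Pld4 difference was not tested. Cd68, a lysosomal protein of macrophages, was the brightest, at 126 to 147 in silenced and 137 to 175 in control cells. The summed melanocyte markers were 35719 to 38319 on silenced and 36534 to 39741 on control arrays, a sum that rests mostly on the brightest genes. Of the 8 melanocyte genes 7 had negative log2 fold changes, with a median of -0.097. Over all genes the median was -0.012, and 45.2% were positive. Dct (-0.0055) and Pmel (-0.016) were near 0, and Mitf was the most negative of the 8. Mitf, the master regulator of the lineage, was at 2414 to 2537 in silenced and 2681 to 2970 in control cells, without overlap (log2 fold change -0.20, SE 0.08, limma adjusted p = 1.00).

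The genes next to Pld4 in the RefSeq order of chromosome 12 had smaller differences. None passed the test, and neither did any of the 22180 genes. Pld4 was chosen for its value, so smaller differences in its neighbours say nothing about the region. Among the 3 nearest annotated genes on each side, 3 were measured. Ahnak2, which encodes a large scaffold protein, had a log2 fold change of 0.060 (SE 0.24), Cep170b, a gene for a centrosome and microtubule protein, -0.012 (SE 0.13), and Clba1 -0.19 (SE 0.09), each with a limma adjusted p = 1.00. The groups of Clba1 did not overlap, with 160 to 175 on silenced and 177 to 207 on control arrays, as was the case in this direction for 5.48% of all genes.

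Genes whose log2 values ran most like those of Pld4 over the 6 arrays were ranked among 13728 genes whose mean over the 6 arrays was above the 95th percentile of the dim receptor genes. A gene could pass this through 1 group alone. The highest Pearson correlations were 0.993 for Mrpl39, a mitochondrial ribosomal protein gene, 0.992 for Klhl29, 0.983 for Slc28a1, 0.981 for Usp14 and 0.978 for Gpn2, and the lowest were -0.998 for Il34, -0.986 for Ccsap and -0.981 for Ell. The ranking picks the extremes of many genes over 6 points, and those points share the group difference of Pld4. The log2 fold changes of the first 5 ran from 0.14 for Slc28a1 to 0.41 for Usp14, a deubiquitinase of the proteasome, all below the 1.01 of Pld4. Slc28a1 was under the dim limit on all 3 control arrays and Il34 on all 3 silenced arrays. None of these 8 genes passed the limma test, each with adjusted p = 1.00.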

How the data were processed

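The deposited values, normalized by the authors, were linear intensities of transcript clusters; the background correction, probe summary and normalization are not given in the sources used here. Of 41345 clusters, 40425 had a value on all 6 arrays. Clusters with exactly 1 symbol in the platform annotation were used, taking the one with the highest mean where a gene had several, which left 22180 genes. Log2 values without a pseudocount were fitted in R 4.3.3 with limma 3.58.1 (lmFit, eBayes). Two-sided p-values were adjusted across all genes by Benjamini-Hochberg. The fit was tested on simulated data with 200 changed genes. The simulated noise was independent between arrays, without structure by replicate number, so this checks the code and not the fit to these arrays.

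The family, lists and motifs were chosen with earlier results of these data known. Genes named were the members, Angpt2, 2 genes per list, the neighbours of Pld4 and its closest correlates; markers, Tlr7, Tlr9 and genes named as small counts were added after their values were seen. The main fit did not treat replicate numbers as pairs. Deviations from group means were correlated between control and silenced arrays. The values were 0.13, 0.21 and 0.14 for the same number and -0.19 to 0.056 for different numbers. A fit with replicate numbers as a block was therefore also run. No label ties a number to a shared day, so the block was kept as an alternative. The labels call the samples biological replicates. The number of arrays limits the precision. Promoters come from RefSeq (GRCm38.p6), where all 6 members matched by symbol; protein sequences were not used here.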

Additional observations from a re-analysis of the deposited data

How the results depend on the processing

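The count of genes passing an adjusted p of 0.05, 0 without changes, was 2 with the replicate block (replicate numbers as pairs), 1 after quantile normalization, 1 after centring arrays on their medians and 1 with trend and robust options. Pld4 was among these counts each time, which supports nothing, since its intensities chose the family. Leaving out single arrays gave counts of 0 to 2, and Pld4 was in none of them. The log2 difference of Pld4 was 0.86 with a pseudocount of 16 and 0.93 to 1.06 with single arrays left out. Pld1 turned to 0.0072 with quantile normalization, 0.0052 with centring and 0.0036 with array weights, and ranged from -0.062 to 0.059 without single arrays. Pld5 ranged from -0.0043 to 0.12 without single arrays. The cause was not tested. Pld2, Pld3 and Pld6 kept their direction in every alternative in which they were fitted, and Pld1, Pld2, Pld3, Pld5 and Pld6 were called in none. Pld2 and Pld5 could not be fitted above the median level. The block changed no other member's call. Dim signals of Pld2, Pld5 and control Pld4 limit what their ratios can show.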
